A study of Mus musculus with 8 samples.

Results

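Integrins are the transmembrane receptors with which a cell holds on to its matrix, and laminins and nidogens are core proteins of the basement membrane that some of them bind. The genes described here were chosen by an annotated symbol that names an integrin alpha or beta subunit, a laminin chain or a nidogen, each represented by its probe set with the highest mean, and they numbered 37 of the 19938 genes measured. There were 17 integrin alpha, 8 integrin beta, 10 laminin and 2 nidogen genes.

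RNA came from hepatic stellate cells, the vitamin A-storing pericytes of the liver sinusoid, of mice on a C57BL/6J background. The control mice carried floxed Lhx2 without a Cre transgene (4 arrays, replicates 1 to 4), and the knockout mice carried floxed Lhx2 together with Mx1Cre (4 arrays, replicates 5 to 8). Lhx2 encodes a LIM homeodomain transcription factor. Mice of both groups had been given poly(I:C), an inducer of interferon and thereby of Mx1Cre, 3 times, and their cells were collected 2 weeks afterwards by density gradient and sorting on retinoid autofluorescence. The Mx1 promoter responds to interferon in many cell types, so effects of deletion within the stellate cell and elsewhere in the mouse cannot be told apart, nor can loss of Lhx2 and the presence of Cre. Ages are not given in the labels. Whether the arrays of a group stand for separate animals is not stated, so the p-values rest on array-to-array spread that may be technical.

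An integrin is a pair of 1 alpha and 1 beta subunit. Itgb1 pairs with most alpha subunits, among them the laminin-binding, collagen-binding and several RGD-binding ones, where RGD is the short peptide motif of fibronectin, vitronectin and related ligands. Itgav pairs with Itgb1, Itgb3, Itgb5, Itgb6 or Itgb8, Itga2b pairs with Itgb3, and the leukocyte alpha subunits pair with Itgb2 or, for Itgae, Itgb7. Laminins are trimers of an alpha, a beta and a gamma chain, and nidogens link the gamma chain to the type IV collagen network. The hepatic sinusoid has no continuous basement membrane in the healthy liver, and stellate cells are a known source of laminin and collagen there.

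The values are log2 expression values as deposited, and all differences below are knockout minus control on that scale. Lhx2 itself had levels of 12.07, 11.88, 11.94 and 11.92 in control 1 to 4 and of 11.09, 11.24, 11.35 and 11.49 in knockout 5 to 8. It was lower in every knockout array, by 0.66 in the mean (SE 0.09, limma adjusted p = 0.00136). Each control array was above each knockout array, and over the 70 ways to assign the arrays the exact permutation p (two-sided) was 0.0286, the smallest possible. Its single probe set may lie outside the deleted part, so that this level need not measure the deletion.

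Stellate cell markers were high on all arrays, with a mean log2 level over 12 markers of 13.00 to 13.10 in the control and 12.92 to 12.95 in the knockout group. Each knockout array thus lay slightly under each control array. Of the 12, 0 rose, 3 fell (Hand2 by 0.48, Hgf by 0.37 and Reln by 0.26) and 9 did not pass, with a median change of -0.11. An unadjusted p under 0.05 was reached by 6 of the 12. The 3 that fell made up 25.0% of this list, while 7.38% of all genes passed, 3.63% as lower. RNA of other cells was present in amounts that differed between arrays. The mean of 13 hepatocyte markers ran from 9.27 (control 4) to 11.36 (control 1) in the control and from 9.79 to 11.29 in the knockout group, and 0 of 13 passed the threshold, with 2 at an unadjusted p under 0.05. The mean of 12 sinusoidal endothelial markers ran from 8.57 (control 1) to 11.10 (control 4) in the control and from 8.58 to 9.86 in the knockout group, and 1 of 12, Clec4g, passed as lower, with 2 at an unadjusted p under 0.05. The changes of these 12 were all negative, from -1.23 to -0.17 with a median of -0.72. As a guide to unexpressed levels, 1190 olfactory and vomeronasal receptor genes had a 95th percentile of 6.77. In bulk RNA, fewer cells of a type and less RNA per cell cannot be told apart.

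Of the 37 genes, 9 rose, 3 fell and 25 did not pass limma's test at an adjusted p under 0.05 (Benjamini-Hochberg over all genes). Over all genes tested, 7.38% passed, 3.76% as higher and 3.63% as lower, and among the genes with a mean level above 6.77, where all 12 passing members lay, 10.5% passed. The genes that rose were Lama2, Nid2, Itga3, Itga8, Itga11, Itgb8, Itgb5, Lamc1 and Nid1, and those that fell were Itga2b, Itgb3 and Lama1. The change was at least 1.5-fold for 7 of the 12, where 2.62% of all genes reached this with an adjusted p under 0.05. The groups did not overlap for 16 of the 37, which were the 12 and Itgb2, Lama5, Lamb2 and Itgav. Of these 16, 12 were higher and 4 lower in the knockout. Such separation was seen for 12.7% of all genes, 6.38% as higher and 6.32% as lower. The median change over the 37 was 0.01 and over all genes -0.02, while the median size of change without its sign was 0.14 against 0.07.

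**Figure D1:**
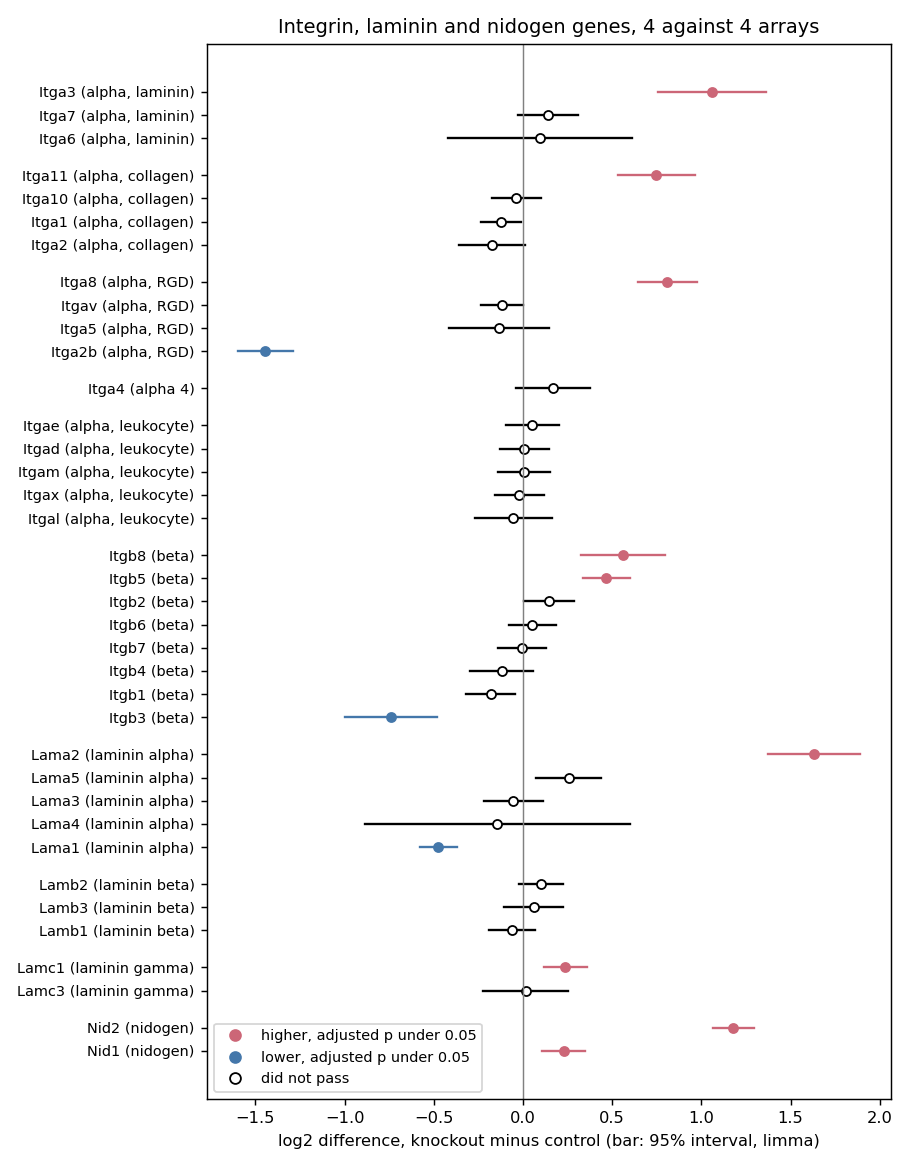
Log2 difference between knockout and control (x axis) for each of the 37 genes (y axis, grouped by role), with the 95% interval from limma, 4 arrays a group. Filled red points rose and filled blue points fell at an adjusted p under 0.05, and open points did not pass. Lama2 lies farthest to the right at 1.63 and Itga2b farthest to the left at -1.44.

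The stretches upstream of the transcription start are shown for the strongest fall and the 3 strongest rises that had an entry in the RefSeq promoter table, so that these start regions can be read beside the values. The table (build GRCm38.p6) held 23 of the 37 genes with 26 start sites. It lists start sites and not the ones used in these cells. Each line runs 5′ to 3′ over the 250 bases before the start, and capitals mark CG dinucleotides.
Itga2b: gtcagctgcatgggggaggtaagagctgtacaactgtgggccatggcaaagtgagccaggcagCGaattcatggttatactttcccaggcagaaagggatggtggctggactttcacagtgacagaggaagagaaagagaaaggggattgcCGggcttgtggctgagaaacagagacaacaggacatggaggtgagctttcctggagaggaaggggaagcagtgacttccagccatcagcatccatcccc
Lama2: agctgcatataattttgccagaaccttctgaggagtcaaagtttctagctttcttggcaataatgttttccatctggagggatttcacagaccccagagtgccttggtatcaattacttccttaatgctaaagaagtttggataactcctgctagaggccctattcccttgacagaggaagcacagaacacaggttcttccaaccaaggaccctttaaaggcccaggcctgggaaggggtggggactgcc
Itga3: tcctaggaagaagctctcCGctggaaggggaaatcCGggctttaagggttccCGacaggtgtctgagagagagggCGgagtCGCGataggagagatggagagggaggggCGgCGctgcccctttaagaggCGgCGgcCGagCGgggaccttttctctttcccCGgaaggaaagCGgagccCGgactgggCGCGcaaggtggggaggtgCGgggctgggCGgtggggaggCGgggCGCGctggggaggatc
Itga8: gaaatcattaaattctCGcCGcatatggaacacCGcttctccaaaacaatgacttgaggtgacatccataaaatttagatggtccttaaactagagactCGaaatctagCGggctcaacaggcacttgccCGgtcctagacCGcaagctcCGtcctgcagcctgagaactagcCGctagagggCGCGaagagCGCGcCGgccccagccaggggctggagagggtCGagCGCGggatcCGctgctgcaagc
The stretch of Itga2b is chr11:102469884-102470133, that of Lama2 chr10:27616943-27617192, that of Itga3 (the more upstream of its 2 start sites) chr11:95076715-95076964 and that of Itga8 chr2:12301945-12302194, all on the minus strand. Itga2b had 2 CG dinucleotides and Lama2 had 0, while Itga3 had 22 and Itga8 18. At the other start site of Itga3, not printed here, the stretch had 5. Of 32851 promoters of the same length, 29.0% had at most 2 and 21.7% at least 18, with a median of 6. The strongest rise and the strongest fall thus both lay at stretches poor in CG. Of 4 motifs, none of which contains another, all were searched on both strands. TAATTA, a core motif of homeodomain factors, stood in 0 of the 26 stretches, against 4.84% of all. GATAA, the core of GATA factor motifs, stood in 2 of the 26 (1 of them that of Lama2) against 22.6% of all. TGANTCA, the AP-1 motif, stood in 1 of the 26 against 6.75%, and GGAATG, a TEAD motif, in 4 against 12.6%. These matches describe letters in a short window and identify no site in use.

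Itga3, Itga8 and Itga11, alpha subunits that all pair with Itgb1, rose. Itga3, a laminin receptor subunit with a preference for laminins of the alpha 3 and alpha 5 chains, was at 8.40, 8.57, 8.82 and 8.79 in control 1 to 4 and at 9.38, 9.63, 9.87 and 9.93 in knockout 5 to 8. Each knockout array lay above each control array, and the level was 2.08-fold higher (log2 change 1.06, SE 0.13, limma adjusted p = 0.00113). Itga6 and Itga7, the other laminin-binding alpha subunits, had changes of 0.10 (SE 0.23) and 0.14 (SE 0.08) and did not pass.

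Itga8 binds the RGD motif in fibronectin, tenascin C and nephronectin and is known from stellate and smooth muscle cells. Its levels were 11.63, 11.73, 11.88 and 11.82 in control 1 to 4 and 12.43, 12.63, 12.60 and 12.65 in knockout 5 to 8. The groups were separate by more than the spread within either, with a 1.75-fold rise (log2 change 0.81, SE 0.07, limma adjusted p = 0.000126). Nephronectin (Npnt), named here after its value was seen, was at or below the 6.77 of the receptor genes on 6 of 8 arrays.

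Itga11, the collagen receptor subunit of fibroblasts, had levels of 7.55, 7.22, 7.26 and 7.24 in control 1 to 4 and 7.98, 8.01, 8.29 and 7.99 in knockout 5 to 8. Control 1 and knockout 7 stood above the rest of their groups, and the groups did not overlap. The rise was 1.68-fold (log2 change 0.75, SE 0.10, limma adjusted p = 0.00124). Of the other collagen-binding subunits, Itga1, at 12.83 ± 0.06 (SD, n = 4) in the control group, had a change of -0.12 (95% interval -0.24 to -0.01), Itga2 of -0.18 (-0.36 to 0.01) and Itga10 of -0.04 (-0.17 to 0.10), and they did not pass.

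Itgb1, the shared partner of these subunits, did not pass. It was at 12.36, 12.50, 12.54 and 12.55 in control 1 to 4 and at 12.34, 12.38, 12.27 and 12.23 in knockout 5 to 8, and the groups overlapped. Its change was -0.18 (SE 0.06, 95% interval -0.32 to -0.05, limma adjusted p = 0.129), an interval whose upper bound lies under the lower bounds of 0.76, 0.64 and 0.53 for Itga3, Itga8 and Itga11. These intervals are not adjusted for the number of genes.

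**Figure D2:**
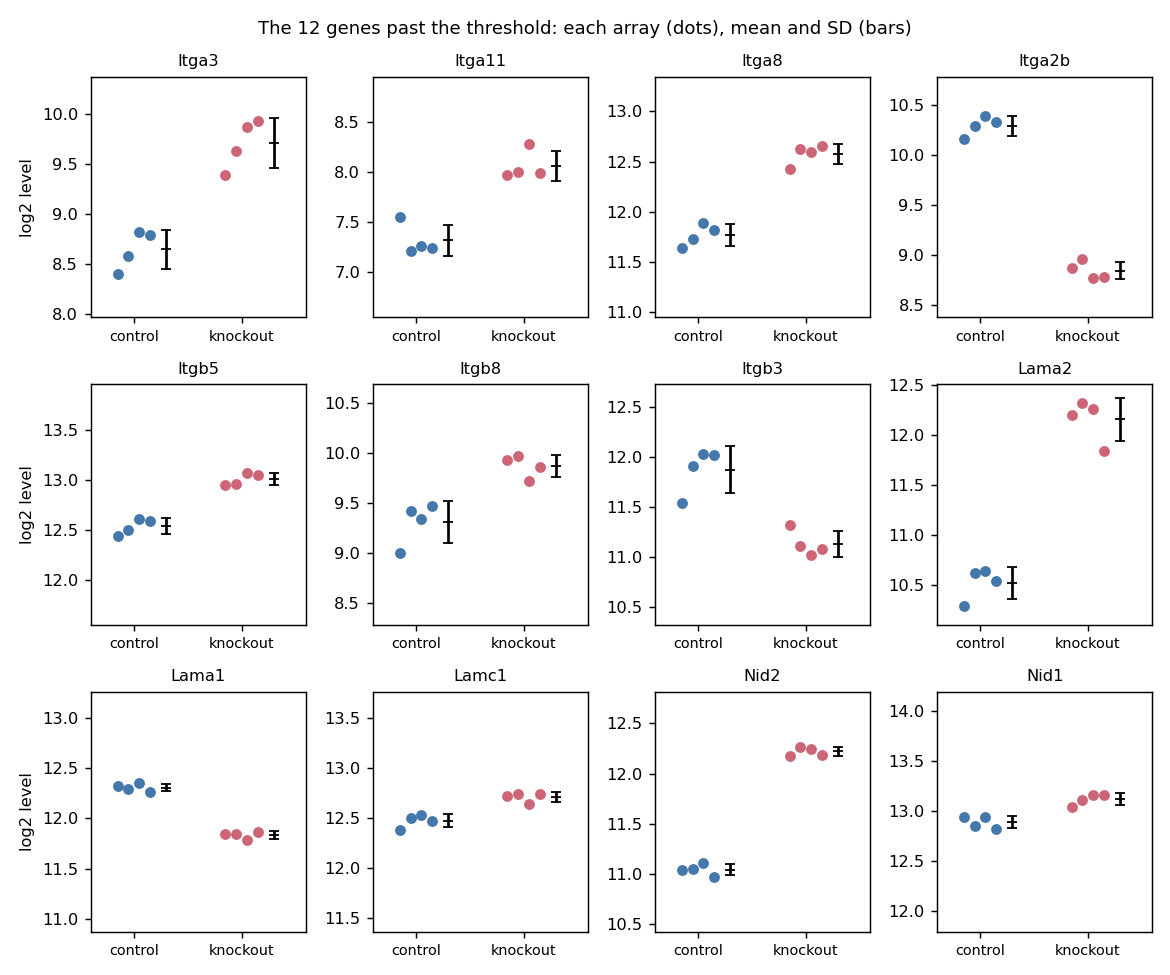
Log2 level (y axis, each panel spanning the same range of 2.4 around its own middle) on each of the 4 control (blue) and 4 knockout (red) arrays for the 12 genes that passed, with the mean and SD as bars. In each panel the groups are separate, by most for Lama2, Itga2b, Nid2 and Itga3.

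Itga2b and Itgb3, which together form the fibrinogen receptor known from platelets, both fell. Itga2b was at 10.16, 10.29, 10.39 and 10.33 in control 1 to 4 and at 8.88, 8.96, 8.77 and 8.78 in knockout 5 to 8. The knockout arrays lay more than a log2 unit under the lowest control array, and the mean fell to 36.8% of the control level (log2 change -1.44, SE 0.07, limma adjusted p = 2.51e-06). Itgb3, which also pairs with Itgav as a vitronectin receptor, was at 11.54, 11.91, 12.03 and 12.03 in control 1 to 4 and at 11.32, 11.11, 11.02 and 11.08 in knockout 5 to 8. Control 1 was the lowest control array and knockout 5 the highest knockout array, and the groups did not overlap. The mean fell to 59.9% of the control level (log2 change -0.74, SE 0.12, limma adjusted p = 0.00383).

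Of 5 measured platelet and erythroid markers 1 rose, 0 fell and 4 did not pass, and their mean log2 level was 7.21 to 7.38 in the control and 7.36 to 7.56 in the knockout group. Pf4, a platelet chemokine, was at 9.41, 9.44, 9.70 and 9.43 in control 1 to 4 and at 10.24, 10.10, 10.34 and 10.06 in knockout 5 to 8, a rise of 0.69 (SE 0.09, limma adjusted p = 0.00109). Ppbp, another platelet chemokine, was at or below 6.77 on all 8 arrays, and Gp9, a subunit of the platelet von Willebrand factor receptor, had a change of 0.03 (SE 0.08). Klf1 was at or below 6.77 on 4 arrays, and the mean levels of Gp9 and Alas2 were near it, at 7.14 for both, which leaves Pf4 as the 1 marker well above it. The part of platelet RNA in the falls of Itga2b and Itgb3 was not tested.

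**Figure D3:**
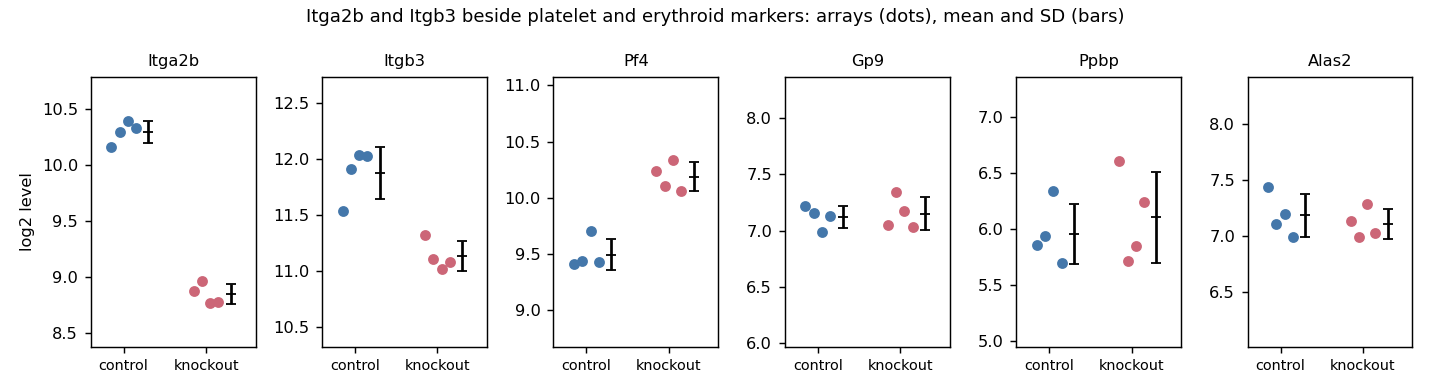
Log2 level (y axis, each panel spanning 2.4) of Itga2b, Itgb3 and 4 platelet or erythroid markers on the 4 control (blue) and 4 knockout (red) arrays, with the mean and SD as bars. Itga2b and Itgb3 are lower in the knockout, Pf4 is higher, and the groups of Gp9, Ppbp and Alas2 overlap.

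Among the partners of Itgav, Itgb3 fell while Itgb5 and Itgb8 rose. Itgb5, a vitronectin receptor subunit, was at 12.44, 12.50, 12.61 and 12.59 in control 1 to 4 and at 12.94, 12.96, 13.06 and 13.05 in knockout 5 to 8. The groups did not overlap, and the rise was 1.38-fold (log2 change 0.47, SE 0.06, limma adjusted p = 0.000972). Itgb8, which with Itgav activates latent TGF-beta, was at 9.0003, 9.42, 9.34 and 9.47 in control 1 to 4 and at 9.92, 9.97, 9.71 and 9.86 in knockout 5 to 8. Control 1 was its lowest array, the groups did not overlap, and the rise was 1.47-fold (log2 change 0.56, SE 0.10, limma adjusted p = 0.0104). Itgb6, the epithelial partner of Itgav, was at or below 6.77 on all 8 arrays, with a change of 0.05 (SE 0.06).

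Itgav itself did not pass. It was at 12.03, 12.10, 12.04 and 12.09 in control 1 to 4 and at 11.84, 11.99, 11.99 and 11.97 in knockout 5 to 8, a change of -0.12 (95% interval -0.24 to 0.002, limma adjusted p = 0.297) with groups that did not overlap. Itga5, the main fibronectin receptor subunit, had a change of -0.13 (SE 0.13) and overlapping groups.

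The remaining integrins are known from leukocytes and epithelia, and none passed. Itga4, Itgae, Itgam and Itgax were at or below 6.77 on all 8 arrays. Itgad, Itgal and Itgb7 had changes of 0.01, -0.05 and -0.0045, and Itgb4, the hemidesmosome partner of Itga6, of -0.12 (SE 0.08). Itgb2, the shared beta subunit of leukocytes, had levels of 6.66 to 6.89 in the control and 6.90 to 6.96 in the knockout group, a change of 0.15 (SE 0.06, limma adjusted p = 0.267). Over the 5 leukocyte alpha genes the changes ran from -0.05 to 0.05. Of 10 T and NK cell markers 8 had a mean level at or below 6.77, as had 5 of 7 B cell and 6 of 10 neutrophil and dendritic cell markers, and 0 of these 27 passed, with 2 at an unadjusted p under 0.05. The mean of 12 Kupffer cell and macrophage markers was 7.44 to 8.34 in the control and 7.40 to 7.91 in the knockout group. Of them, 1 fell (Cd68), 0 rose and 4 had an unadjusted p under 0.05. Their changes ran from -1.24 (Vsig4) to 0.30 (Lyz2), with a median of -0.17.

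On the ligand side, 4 of the 12 laminin and nidogen genes rose (Lama2, Nid2, Lamc1 and Nid1), 1 fell (Lama1) and 7 did not pass. Lama2, the alpha chain of muscle and nerve basement membranes, was at 10.29, 10.62, 10.64 and 10.54 in control 1 to 4 and at 12.20, 12.32, 12.26 and 11.84 in knockout 5 to 8. Knockout 8 was the lowest of its group and still stood well above the highest control array. The level was 3.10-fold higher (log2 change 1.63, SE 0.11, limma adjusted p = 2.69e-05).

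Lama1, the alpha chain of early embryonic laminin, moved the other way. It was at 12.32, 12.29, 12.35 and 12.27 in control 1 to 4 and at 11.85, 11.85, 11.78 and 11.87 in knockout 5 to 8. The arrays of a group lay close together, and the mean fell to 72.0% of the control level (log2 change -0.47, SE 0.05, limma adjusted p = 0.000238). Lama3, an epithelial chain, had a change of -0.05 (SE 0.07). Lama5, a chain of mature and vascular basement membranes, was at 9.29, 9.48, 9.56 and 9.53 in control 1 to 4 and at 9.62, 9.85, 9.80 and 9.61 in knockout 5 to 8, a change of 0.26 (SE 0.08, limma adjusted p = 0.105) in groups that did not overlap.

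Of the 5 beta and gamma chain genes, 1 rose and 4 did not pass. Lamc1, the gamma chain of most laminins, was at 12.39, 12.51, 12.53 and 12.48 in control 1 to 4 and at 12.72, 12.74, 12.64 and 12.74 in knockout 5 to 8. The rise was 1.18-fold (log2 change 0.24, SE 0.05, limma adjusted p = 0.0240). Lamb1, a beta chain that joins Lamc1 in laminins with the Lama1 or Lama2 chain, had a change of -0.06 (SE 0.06) at a control level of 12.14 ± 0.08 (SD, n = 4). Lamb2 had a change of 0.10 (SE 0.05), Lamb3 of 0.06 (SE 0.07) and Lamc3 of 0.01 (SE 0.11), and none of these passed.

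Both nidogens rose. Nid2 was at 11.04, 11.05, 11.11 and 10.97 in control 1 to 4 and at 12.18, 12.27, 12.25 and 12.19 in knockout 5 to 8. The spread within either group was small beside the gap, and the level was 2.27-fold higher (log2 change 1.18, SE 0.05, limma adjusted p = 1.77e-06). Nid1 was at 12.93, 12.85, 12.93 and 12.82 in control 1 to 4 and at 13.03, 13.11, 13.16 and 13.16 in knockout 5 to 8. Its rise was 1.17-fold (log2 change 0.23, SE 0.05, limma adjusted p = 0.0308). The calls of Lamc1 and Nid1 were the least firm of the 12. Lamc1 did not pass without control 1, control 2, control 4, knockout 5, knockout 6 or knockout 8, each left out alone (adjusted p up to 0.0817), nor with hepatocyte and endothelial marker levels as covariates (0.0628), and Nid1 did not pass without control 2, control 4, knockout 6, knockout 7 or knockout 8 (up to 0.0972). Without both control 1 and control 4, the adjusted p was 0.199 for Lamc1 and 0.171 for Nid1.

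Markers of portal fibroblasts and mesothelium moved in the same comparison. Of 14, 5 rose (Cd34, Dpt, Dpep1, Eln and Mfap4), 1 fell (Wt1) and 8 did not pass, and their mean log2 level was 7.55 to 7.69 in the control and 8.18 to 8.32 in the knockout group. Thy1 and Gli1, also on that list, had changes of -0.10 (SE 0.09) and -0.01 (SE 0.09), and Msln and Upk3b, markers of mesothelium, of -0.02 (SE 0.08) and 0.03 (SE 0.06). Entpd2, on the same list, had a change of -0.295 (SE 0.12, limma adjusted p = 0.245) and did not pass. The part of such cells in the rises of Itga3, Itga8, Itga11, Lama2 and the nidogens was not tested. The mean of 14 smooth muscle and pericyte markers was 9.96 to 10.03 in the control and 9.81 to 10.01 in the knockout group. Of these 14, 2 rose (Tagln 0.77 and Notch3 0.57) and 8 did not pass. The 4 that fell were Rgs4 (-1.60), Rgs5 (-0.52), Kcnj8 (-0.39) and Smtn (-0.36). On this list and on that of portal fibroblasts and mesothelium 42.9% passed, against 7.38% of all genes. Among genes with a mean level above 6.77, where 12 and 13 of the 14 lay, 10.5% passed. Both lists were chosen with earlier results of these data known. Cholangiocyte markers had 0 of 7 past the threshold, also 0 at an unadjusted p under 0.05, and 5 of 7 had a mean level at or below 6.77.

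Lama4 and Itga6, a laminin chain and a laminin receptor subunit known from endothelium, had the largest spread among control arrays of the 37, with SDs of 0.67 and 0.53. Lama4 was at 6.60, 7.58, 6.84 and 8.05 in control 1 to 4 and at 6.84, 6.88, 6.95 and 7.82 in knockout 5 to 8, a change of -0.14 (95% interval -0.89 to 0.60). Itga6 was at 6.37, 7.11, 6.59 and 7.55 in control 1 to 4 and at 6.77, 7.21, 7.0013 and 7.03 in knockout 5 to 8, a change of 0.10 (95% interval -0.42 to 0.61). The 3 arrays highest in Lama4 (control 2, control 4 and knockout 8) were also the 3 highest in the mean of the endothelial markers, at 10.61, 11.10 and 9.86. With the hepatocyte and endothelial marker levels as covariates the change was 0.25 for Lama4 (adjusted p = 0.467) and 0.30 for Itga6 (adjusted p = 0.0975).

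**Figure D4:**
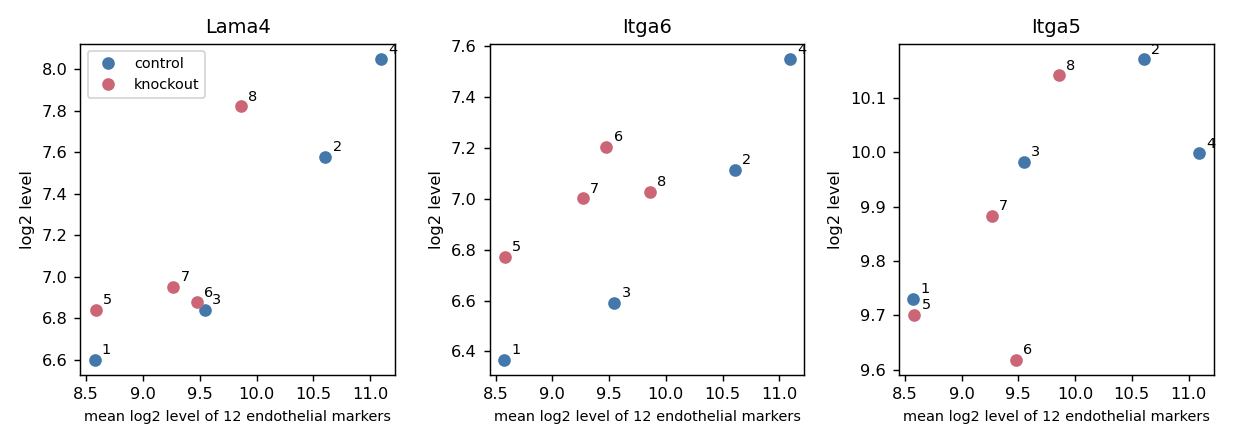
Log2 level of Lama4, Itga6 and Itga5 (y axes) against the mean log2 level of 12 sinusoidal endothelial markers (x axis), 1 point per array, numbered by replicate, control blue and knockout red. Control 1 is lowest in Lama4, Itga6 and the marker mean and control 4 is highest in them, while Itga5 is lowest in knockout 6 and highest in control 2.

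The other ligands and partners of these receptors are given by list, each beside the 7.38% of all genes that passed. Among 23 basement membrane partners, 4 rose, 2 fell and 17 did not pass, with a median change of -0.01. Smoc2, a calcium-binding matrix protein, rose by 1.40 (SE 0.08), Frem1 by 0.76 (SE 0.11) and Frem2 by 0.41 (SE 0.07), both proteins of the Fraser complex at epithelial basement membranes, and Hspg2, the proteoglycan perlecan, by 0.35 (SE 0.07). Egfl6, a matrix protein with an RGD motif, fell by 0.35 (SE 0.05). Hmcn1, hemicentin, fell by 0.40 (SE 0.10, limma adjusted p = 0.0420). Its chosen probe set lost the call under 11 of 17 alternatives, but of its 77 probe sets tested on their own 69 fell and 0 rose. Hspg2 and Egfl6 lost theirs only without both control 1 and control 4 among the 17 (adjusted p of 0.114 and 0.0550). Sparc and Tinagl1, which did not pass, had changes of -0.07 and -0.04. The 6 type IV collagen chains, named after their values were seen, had changes of -0.05 to 0.18, and none passed.

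Of 9 laminin receptors that are not integrins, 2 rose, 1 fell and 6 did not pass (median -0.02). Mcam, a laminin-binding adhesion molecule of pericytes and endothelium, fell by 1.09 (SE 0.08) and also passed with the hepatocyte and endothelial marker covariates, while Sdc1, syndecan 1, rose by 0.68 (SE 0.10) and Rpsa, a ribosomal protein also known as the laminin receptor, by 0.32 (SE 0.07). Rpsa did not pass without control 2, knockout 5, knockout 6 or knockout 8, each left out alone, or without control 1 and control 4 (adjusted p up to 0.107). Dag1, dystroglycan, a receptor of laminins that carry the alpha 2 chain, had a change of -0.01 (SE 0.06) at a control level of 12.43 ± 0.06 (SD, n = 4), and its partner Sgce of -0.05 (SE 0.05).

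Of 22 other matrix ligands of integrins, 6 rose, 1 fell and 15 did not pass (median 0.01). Svep1, a large adhesion protein, rose by 4.14 (SE 0.09), Tnc, tenascin C, by 2.22 (SE 0.15), the collagen chains Col3a1, Col1a1 and Col1a2 by 0.97, 0.82 and 0.59, and Thbs1, thrombospondin, by 0.70 (SE 0.13; adjusted p = 0.0901 without control 1 and control 4). Postn, periostin, fell by 0.44 (SE 0.07). Fn1, fibronectin, and Tgfbi had changes of 0.03 (SE 0.05) and -0.0001 (SE 0.05). Of 12 cell surface ligands of integrins, 0 rose, 3 fell and 9 did not pass (median -0.15). F11r, a junction molecule, fell by 0.61 (SE 0.14), Icam4 by 0.34 (SE 0.08) and Icam2 by 0.27 (SE 0.05). These calls were lost under 6, 6 and 1 of 17 alternatives (adjusted p up to 0.160, 0.0738 and 0.0861). With the marker covariates F11r and Icam2 passed and Icam4 did not. Without control 2, control 3 or knockout 6, each left out alone, or without control 1 and control 4, 1 of the 3 passed. Vcam1, a ligand of Itga4, and Cd47 had changes of -0.15 (SE 0.05) and -0.03 (SE 0.06).

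**Figure D5:**
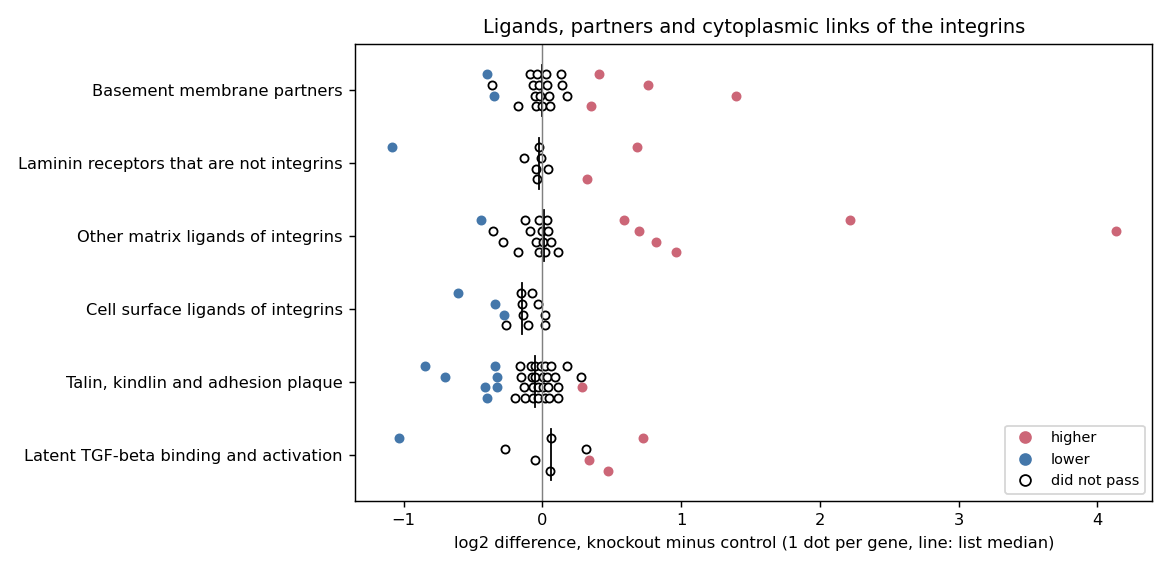
Log2 difference between knockout and control (x axis) for the genes of 6 lists of ligands, partners and cytoplasmic links of integrins (y axis), 1 dot per gene, filled red where higher, filled blue where lower and open where the gene did not pass, with a line at each list's median. In the list of talin, kindlin and adhesion plaque genes 7 filled dots lie left of 0 and 1 right of it, and Svep1 stands apart at 4.14 among the matrix ligands.

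Inside the cell, talins and kindlins bind the tails of beta subunits and switch integrins on, and vinculin, zyxin, tensins and the Lims1 protein (PINCH) link them to actin. Of 35 such genes, 7 fell, 1 rose and 27 did not pass (median -0.05). Tln2, talin 2, was at 11.78, 11.88, 11.91 and 11.89 in control 1 to 4 and at 11.04, 11.09, 10.87 and 11.09 in knockout 5 to 8, a fall of 0.84 (SE 0.06, limma adjusted p = 3.81e-05). Fermt2, kindlin 2, was at 13.07, 13.18, 13.11 and 13.09 in control 1 to 4 and at 12.71, 12.74, 12.60 and 12.75 in knockout 5 to 8, a fall of 0.41 (SE 0.05, limma adjusted p = 0.00124). In both genes each knockout array lay under each control array. Zyx, zyxin, fell by 0.70 (SE 0.12), Vcl, vinculin, by 0.34 (SE 0.06), Tns2 by 0.33 (SE 0.05), Lims1 by 0.32 (SE 0.05) and Tgfb1i1, Hic-5, by 0.40 (SE 0.10), while Tns1 rose by 0.29 (SE 0.05). Zyx and Tns1 did not pass without control 1 and control 4 (adjusted p of 0.0545 and 0.0780). Tgfb1i1 lost its call under 8 of 17 alternatives, which included leaving out any array but knockout 7 (adjusted p up to 0.238). Actn4, an actinin, and Rsu1 had changes of -0.05 (SE 0.05) and 0.03 (SE 0.05), and Tln1, named after its value was seen, of 0.004 (SE 0.05).

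Of 9 genes of latent TGF-beta, some forms of which Itgav pairs release from the matrix store, 3 rose, 1 fell and 5 did not pass (median 0.06). The ligand Tgfb2 fell by 1.03 (SE 0.15), and Tgfb3 rose by 0.73 (SE 0.08). Tgfb1, named after its value was seen, did not pass. Its change was -0.27 (SE 0.07, limma adjusted p = 0.0523), in groups that did not overlap. The latent binding proteins Ltbp3 and Ltbp2 rose by 0.33 (SE 0.07) and 0.47 (SE 0.12). Ltbp2 did not pass under 9 of 17 alternatives, among them leaving out any array but knockout 8 (adjusted p up to 0.203). Lrrc32, the cell surface anchor GARP, had a change of 0.32 (SE 0.09, limma adjusted p = 0.0666), and passed under 5 of 17 alternatives. Ltbp4 had a change of 0.06 (SE 0.05).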

How the data were processed

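Each of 8 Affymetrix Mouse Gene ST arrays, 4 control and 4 knockout, received 150 ng RNA, per the labels' protocols. The deposited log2 values were normalized by the authors with RMA, per the labels and the submitters' processing notes (version and genome build: not given in the sources used here). RMA compresses differences of very dim and very bright probe sets. No scan dates or batches were given, so none was tested.

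Of 35556 probe sets, 21789 had 1 gene symbol in the platform annotation and 1621 several, which were left out, 3 of them shared by Itgam and another gene. The probe set with the highest mean stood for a gene, which mattered for 1 member, Itgad, with 2. The difference knockout minus control came from limma 3.58.1 (lmFit, then eBayes; R 4.3.3) over all 19938 genes, two-sided, with no filter or covariate, Benjamini-Hochberg adjustment and a threshold of 0.05. The step was tested on simulated data. The number of arrays limits the precision.

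Groups came from the sample titles. The genes, the 6 pathway and 11 marker lists and the alternatives were chosen with earlier results of these data known. Every member was described, with up to 6 passing and 2 other genes of each pathway list by rule, and the others of a list that passed. Alternatives were median centring, quantile normalization, a filter on dim genes, trended robust eBayes, array weights, other treatments of probe sets, leaving out arrays, marker covariates and stricter thresholds. The use of these alternatives on the pathway lists was added after the data were seen. 1 integrin gene is not reported here. Promoter sequences are from RefSeq.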

Additional observations from a re-analysis of the deposited data

Results flagged for a closer look

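In 5 of 76 groups of 4 arrays, over the 37 genes and Lhx2, 1 array stood far from the other 3 for the range of its group; chance gives about 1 in 20. Itga11 was highest in control 1 at 7.55, where the others were 7.22 to 7.26, and in knockout 7 at 8.29, where the others were 7.98 to 8.01. Itgav was lowest in knockout 5 at 11.84 (others 11.97 to 11.99). Lama4 was highest in knockout 8 at 7.82 (others 6.84 to 6.95). Lamb2 was highest in knockout 7 at 11.17 (others 11.07 to 11.08).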

How the results depend on the processing

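No paired analysis was possible because the groups share no replicate numbers. The count of risen members was 9 and went to 5 with a 1.5-fold threshold; it was 7 to 9 when single arrays were left out, 7 without control 1 and control 4, and 6 to 10 under the others. Fallen members numbered 3, or 2 with the 1.5-fold threshold. Lhx2 passed under all 17 refits. Itga2b, Itgb3, Itga3, Itga8, Itga11, Itgb5, Itgb8, Lama1, Lama2 and Nid2 passed in all 17 refits (each with the same sign), Itgb8 with an adjusted p of up to 0.0393. Itgb2 passed with quantile normalization (log2 change 0.18, adjusted p = 0.0351).

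Signs turned only for genes that did not pass. With the hepatocyte and endothelial marker covariates the changes were 0.057 (Itga5), 0.015 (Itgal), -0.049 (Itgam), 0.011 (Itgb7), 0.25 (Lama4), -0.014 (Lamb3), -0.086 (Lamc3), 0.010 (Dag1), 0.029 (Tgfbi) and 0.018 (Cd47). With quantile normalization the changes were 0.012 (Itgax), 0.0091 (Itgb7), 0.040 (Tinagl1), 0.030 (Dag1), 0.013 (Tgfbi), 0.011 (Cd47) and 0.0052 (Actn4). With array weights the changes were -0.074 (Itga6), -0.0033 (Itgad), 0.012 (Itgb7) and 0.0033 (Tgfbi). With median centring the change was 0.0021 (Tgfbi). With probe sets averaged the change was -0.028 (Itgad). Without control 1 and control 4 the changes were -0.066 (Itgad), 0.0024 (Itgax) and -0.0006 (Fn1). Over single arrays left out, the ranges that crossed 0 were -0.070 to 0.013 (Itga10), -0.083 to 0.31 (Itga6), -0.026 to 0.053 (Itgad), -0.12 to 0.012 (Itgal), -0.029 to 0.047 (Itgam), -0.042 to 0.015 (Itgax), -0.053 to 0.025 (Itgb7), -0.38 to 0.12 (Lama4), -0.066 to 0.077 (Lamc3), -0.065 to 0.0059 (Tinagl1), -0.043 to 0.016 (Dag1), -0.017 to 0.018 (Tgfbi) and -0.046 to 0.012 (Cd47). The causes were not tested. Small differences near unexpressed levels are limited by signal over background.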
